A study of Scophthalmus maximus with 8 samples.

Results

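Flatfish hatch as upright swimmers with an eye on each side of the head and settle later with both eyes on the same side. Thyroid hormone drives this metamorphosis, and climax is the phase in which the eye is on its way. The turbot (Scophthalmus maximus) at climax was compared here with the level expected if each gene had changed at an even pace between the larva before metamorphosis and the juvenile after it.

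The comparison used 6 of the 8 libraries of the series, chosen by their stage labels: 2 pre-metamorphic (15 dph, days post hatching), 2 climax (23 dph) and 2 post-metamorphic (37 dph). Each library came from 1 fish with the part of the body behind the cloaca cut off, and the labels give no treatment. The other 2 libraries were whole animals at 3 dpf (days post fertilization). They are not part of the contrast but share the estimate of the spread in the fit. Counts on genes ranged from 19077018 to 24633023 over the 6 libraries. The sources used here give no sex, family, tank or sequencing batch, so the age of the fish and such factors cannot be told apart. In bodies sequenced in bulk, fewer cells of a type and less RNA per cell cannot be told apart either.

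For each gene a straight line in age was drawn on the log2 scale from its level at 15 dph to its level at 37 dph. Climax lies 8 days along the 22 days, so the line places a gene at 36.4% of its net change. The deviation is the log2 level at climax minus the level on the line. The quasi-likelihood test of edgeR took it as 1 contrast over 18987 genes, and a gene was called when its p-value, adjusted by Benjamini-Hochberg, was under 0.05. A called gene is "ahead" when its level at climax lay between the levels at 15 and 37 dph and further along than the line. It is "behind" when it lay between them and less far along, and "outside" when it lay above or below both. The classes follow the fitted stage means without a test against either end. A gene near an end is therefore not shown to lie on either side of it. "Rising" and "falling" refer only to the sign of the net change from 15 to 37 dph. The tables name genes by Ensembl identifier, and 0 of them matched the gene table used here. Gene functions and the tissue labels could therefore not be checked against markers, and genes are described below by their patterns.

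Few genes were called off the line at climax, and almost all of those called in the edgeR fit of 8 libraries were above it. Over all genes tested, called or not, 9441 lay above the line and 9546 below it. A gene that was not called was not thereby shown to lie on the line. Of the 18987 genes, 105 were called, which is 0.553% of the genes tested. The level at climax was above the line for 99 of them (0.521%) and below it for 6 (0.0316%). Among the 99, 72 were outside and above both ends by their stage means, 24 were ahead and rising, and 3 were behind and falling. Only 19 of the 72 were also called against both ends. Among the 6, 5 were outside and below both ends by their stage means and 1 was behind and rising. Only 1 of the 5 was also called against both ends. The edgeR fit of 8 libraries called 0 genes ahead and falling, with 57 at an unadjusted p under 0.05. There were 3 in the fit of 6 libraries, 4 in DESeq2 and 23 in voom with stage weights. With the 6 libraries alone, 195 of the genes called above the line were outside and above and 33 were ahead and rising.

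Over all genes tested the deviation had a median of -0.00 on the log2 scale and quartiles of -0.20 and 0.20. It was under 0.5 in size for 87.2% of the genes. The line is nearly flat for a gene with little net change, so a small deviation there says little about its pace. At an unadjusted p under 0.05, 1651 genes (8.7%) were above the line and 986 (5.19%) below it. With upper-quartile normalization the excess above the line was smaller, with 1423 genes above and 1175 below. The called deviations started at 0.69 in size, reached 4.06 above the line and reached -2.00 below it. The 105 genes deviated in the same direction in all 8 choices of 1 library per stage, as did 49.5% of all genes tested. These choices reuse the libraries by which the 105 were called, which favours a higher share among them.

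The number of calls changed with the libraries and the test. The biological coefficient of variation between the 2 fish of a stage was 8.15% for 15 dph and 10.1% for 23 dph, against 19.7% for 37 dph and 22% for the whole animals of 3 dpf. With the 3 dpf libraries left out of the fit, 237 genes were above the line and 33 below, including all 99 and all 6. With replicate 1 of 23 dph left out 17 genes were above and 1 below, and with replicate 1 of 15 dph left out 22 were above and 0 below (423 at an unadjusted p under 0.05 in edgeR). The 105 genes kept the sign of their deviation in every refit that tested them. The refits reuse the libraries by which these genes were called, so the kept signs are no independent support.

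**Figure D1:**
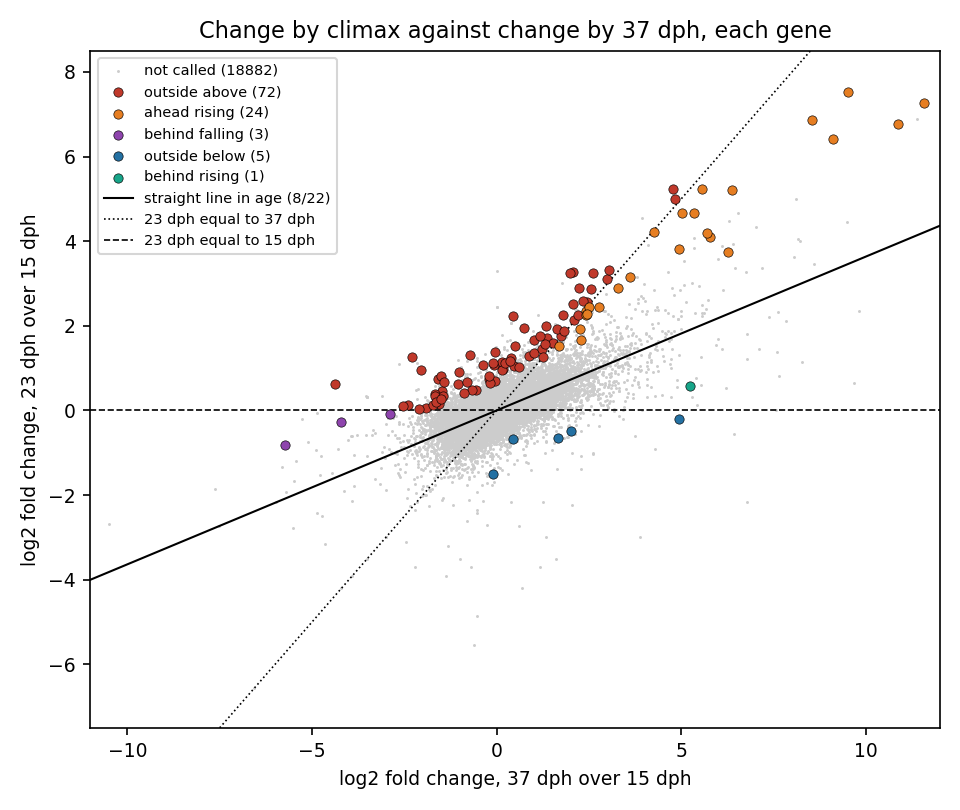
Log2 fold change of each gene from 15 to 23 dph (vertical axis) against that from 15 to 37 dph (horizontal axis), 1 point per gene, with called genes coloured by class. The solid line is the straight line in age, the dotted line marks equal levels at 23 and 37 dph, and the dashed line equal levels at 15 and 23 dph. The 99 genes called above the solid line far outnumber the 6 called below it.

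The 24 genes that were ahead and rising had covered most of their increase by climax on the log2 scale, though not all of them in CPM. Their median level was 4.47 CPM (read counts scaled to library size by TMM) in larvae, 74.4 CPM at climax and 105 CPM in juveniles. The median position at climax was 86.4% of the net log2 change, with a range from 59.6% to 99.2%, against 36.4% on the line. Of the 24 genes, 21 were at least 4 times their level of 15 dph at climax, and 15 had covered at least 80% of the way. A further doubling or more from 23 to 37 dph remained for 10 of them. Their level at climax was a median of 4.02 times that on the line, and the log2 deviations ran from 0.84 to 4.06. The 24 were picked by their levels in these same libraries, which favours high positions and deviations. The values are therefore a description without a test. These genes together took 0.0435% and 0.0502% of all gene counts in the 15 dph libraries, 0.317% and 0.559% in those of climax and 1.33% and 1.75% in those of 37 dph.

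Whether a gene counts as ahead depends on the scale of the line. A straight line on the CPM scale lies higher than one on the log2 scale at every age between the ends, and 16 of the 24 genes were above that line too. The 2 climax fish also differed more in these genes than in most. The median difference between them was 0.47 on the log2 scale, against 0.16 over all genes tested and 0.12 over those whose mean reached 10 CPM. Replicate 1 of 23 dph was the higher for 20 of the 24 genes and for 72 of all 99 genes above the line, against 50.1% of all genes tested. The part of this difference between fish in the result was not tested.

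ENSSMAG00000011856 had the largest deviation among genes between the ends and above the line, by the rule for named genes. Its counts were 7 and 14 at 15 dph, 617 and 2316 at 23 dph, and 4696 and 6394 at 37 dph. In CPM it stood at 0.43 ± 0.19 at 15 dph, 79.4 ± 70.5 at climax and 316 ± 26.2 in juveniles (SD, n = 2 at each stage). The stages did not overlap, and the 2 climax fish differed from each other by more than the fish of either other stage. The level on the line at climax was 4.55 CPM, and the log2 deviation was 4.06 (standard error 0.53, edgeR adjusted p = 0.0096). The gene had covered 79.0% of its net log2 change. Its mean at climax was below a straight line drawn on the CPM scale, so on that scale it was not ahead. Without replicate 1 of 23 dph the deviation was 4.77 and without replicate 2, the higher of the climax fish, it was 2.64, both still called in edgeR. Without replicate 1 or replicate 2 of 15 dph the deviation was 3.81 or 4.41 and the edgeR call was lost (adjusted p = 0.0689 and 0.0729).

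**Figure D2:**
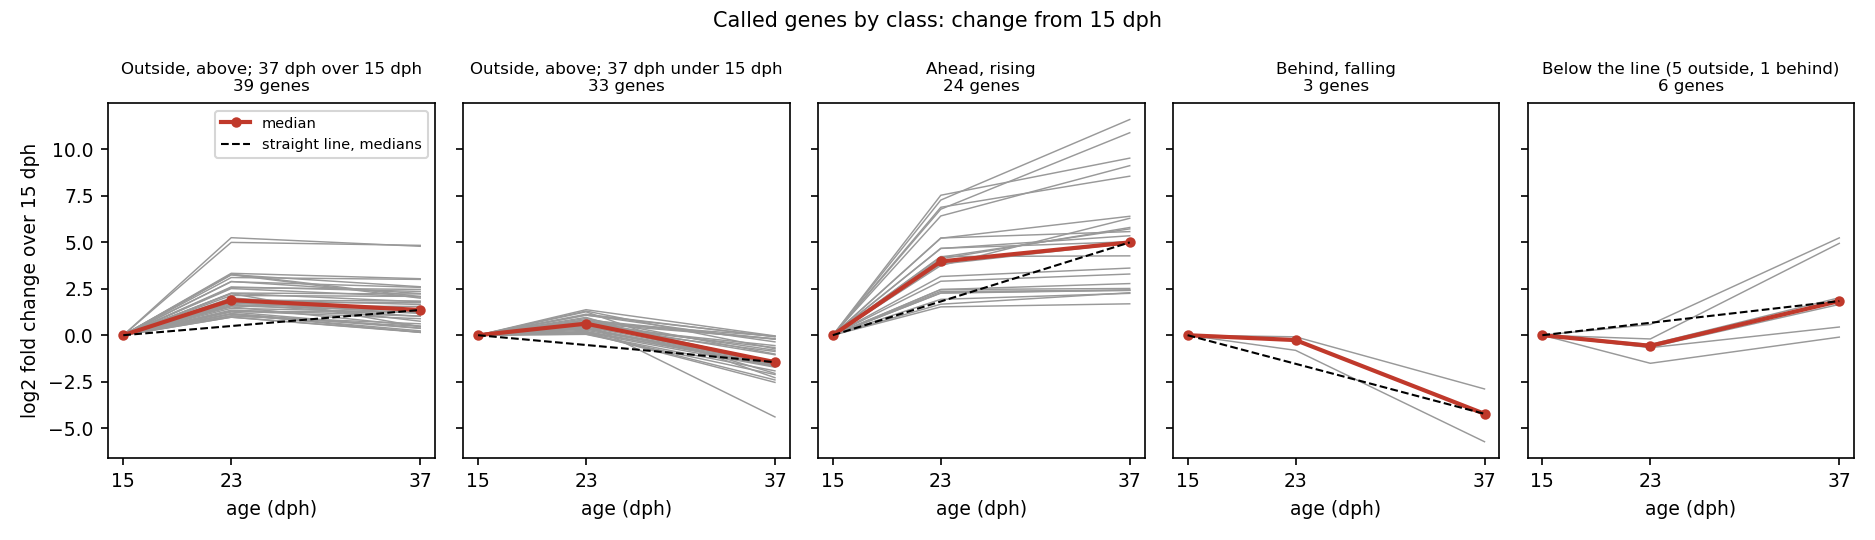
Log2 fold change from 15 dph of the 105 called genes against age in dph, 1 grey line per gene, in panels by class. The red line is the median of the panel and the dashed line joins its ends. In the panels of the 72 outside genes and the 24 ahead genes the red line runs over the dashed line at 23 dph, and in the panel of the 6 genes below the line it runs under it.

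The 72 genes outside and above both ends were the largest class. It was also the largest at an unadjusted p under 0.05 in edgeR, with 1304 of the 1651 genes above the line. A gene with little net change has nearly equal ends, so a deviation easily places it outside. The size of the class therefore says little about the called genes in particular. Of the 72 genes, 39 had a higher level at 37 than at 15 dph and 33 a lower one. The 39 rising genes had median levels of 8.79 CPM in larvae, 36.5 CPM at climax and 29.9 CPM in juveniles. The median log2 change was 1.88 from 15 to 23 dph and -0.45 from 23 to 37 dph. The 33 falling genes had median levels of 59.3 CPM in larvae, 83.3 CPM at climax and 24.8 CPM in juveniles, with a median log2 change of 0.62 from 15 to 23 dph and of -1.84 from 23 to 37 dph.

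For many of these genes the excess over the nearer end was small. The level at climax was within 0.5 on the log2 scale of the nearer end for 37 of the 72, and at least 1 over it for 11. Replicate 1 of 23 dph was higher than replicate 2 for 50 of the 72. Both climax libraries were above all 4 libraries of 15 and 37 dph for 52 of the 72, against 8.93% of all genes tested. The 72 were picked by their levels in these same libraries, which favours a higher share, so this is a description without a test. The deviations ran from 0.69 to 3.50 with a median of 1.12, or 2.17 times the level on the line.

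A peak at climax needed the level at 23 dph to be called higher than at 15 dph and than at 37 dph as well as above the line. This was met by 19 genes (0.1% of the genes tested). Between 15 and 23 dph 2.15% of the genes were called in either direction, and between 23 and 37 dph 27.1%. The 19 genes were a median of 1.14 higher on the log2 scale at 23 than at 15 dph, with a range from 0.70 to 3.28. Over 37 dph the median was 0.99, with a range from 0.57 to 3.54. Both differences were at least 1 for 9 genes. The median levels were 32.4 CPM in larvae, 64.7 CPM at climax and 24.8 CPM in juveniles. Of the 19 genes, 4 had a mean of at least 1000 CPM over the 6 libraries. The count was 70 without the 3 dpf libraries, 2 without either replicate of 15 dph, at most 1 with either replicate of 23 dph left out, all in the edgeR test, and 55 in DESeq2.

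ENSSMAG00000025993 had the largest deviation among the outside genes above the line that the naming rule admits. Its values were 3.86 and 3.12 CPM at 15 dph, 44.0 and 25.9 CPM at climax, and 18.6 and 38.3 CPM in juveniles. Climax and juvenile values overlapped and both stages stood far above the larval one. The level on the line was 7.29 CPM, and the log2 deviation was 2.22 (standard error 0.31, edgeR adjusted p = 0.0137). It counts as outside by its stage means only, since the log2 change from 23 to 37 dph was -0.29 with a standard error of 0.35. Without replicate 1 of 23 dph the deviation was 1.79 and the edgeR call was lost (adjusted p = 0.256). It was also lost without replicate 1 or replicate 2 of 15 dph (deviations of 2.32 and 2.13, adjusted p = 0.0689 and 0.122).

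The class outside and above contained abundant genes. Its genes together took 2.86% and 2.98% of all gene counts at 15 dph, 4.97% and 5.42% at 23 dph and 1.95% and 2.38% at 37 dph. All 99 genes above the line took 2.94% and 3.04% in larvae, 5.31% and 6.0% at climax, and 3.70% and 3.72% in juveniles. The most abundant of the 99 held 19.5% of their sum at climax and the 3 most abundant 53.7%. Without the most abundant gene the sums were 2.32% and 2.41%, 4.30% and 4.79%, and 3.17% and 3.24% in the same order. The 20 most abundant genes of each library held 12.7% and 12.8% of gene counts at 15 dph, 18.9% and 19.1% at 23 dph and 20.7% and 24.9% at 37 dph. From 15 to 23 dph this share rose as the sums did, and from 23 to 37 dph it rose while they fell. The part of this shift in composition in the calls was not tested. Upper-quartile normalization called 93 genes above the line, all of them among the 99, and 8 below it. At an unadjusted p under 0.05 in edgeR it gave 1423 genes above and 1175 below, against 1651 and 986 with TMM. The median deviation was -0.03 with it.

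Called genes were more frequent among abundant genes. The genes were split by their mean CPM over the 6 libraries into 4 groups of equal size. From the lowest group to the highest 0.126%, 0.337%, 0.569% and 1.18% were called. The median standard error of the deviation went over the same groups from 0.32 to 0.20, 0.16 and 0.16 on the log2 scale. Of the genes in the lowest group, 6 were called. At most 3 counts in both libraries of 15 dph were found for 1 of the 105 genes, and in both libraries of 23 or of 37 dph for 0 of them.

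The 3 genes that were behind and falling had median levels of 62.4 CPM in larvae, 52.0 CPM at climax and 3.32 CPM in juveniles. They had covered from 2.99% to 14.2% of their net fall at climax. The fall from 15 to 23 dph was called only for the gene furthest along (log2 change of -0.81, edgeR adjusted p = 0.0259). For the others the edgeR adjusted p was 0.468 and 0.846. Their deviations ran from 0.96 to 1.27, and 2 of the 3 were above the line drawn on the CPM scale. Together they took 0.0246% and 0.0258% of gene counts at 15 dph, 0.0146% and 0.0154% at climax, and 0.000802% and 0.00117% in juveniles.

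Below the line stood 6 genes, with deviations from -0.83 to -2.00 and a median of -1.29. The 5 outside genes had median levels of 13.5 CPM in larvae, 9.57 CPM at climax and 54.5 CPM in juveniles, and 4 of them had a higher level at 37 than at 15 dph. Both climax libraries were below all 4 libraries of 15 and 37 dph for 4 of the 5, against 7.33% of all genes tested. Here too the genes were picked by levels in the same libraries, which favours a higher share. A dip called against both ends was found for 1 gene (0.00527%), which was left unnamed by the rule. It stood at 200.1 CPM in larvae, 70.4 CPM at climax and 186.3 CPM in juveniles, a log2 change of -1.51 from 15 to 23 dph and a deviation of -1.47.

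ENSSMAG00000031294 had the largest deviation below the line among the outside genes. Its values were 5.64 and 3.77 CPM at 15 dph, 3.41 and 4.80 CPM at climax, and 195.4 and 92.5 CPM in juveniles. The values of 15 and 23 dph overlapped and those of 37 dph stood far above both. The level on the line was 15.7 CPM and the log2 deviation was -2.00 (standard error 0.36, edgeR adjusted p = 0.0444). The call was lost without either replicate of 15 dph (adjusted p = 0.214 and 0.0995 in edgeR) and without either replicate of 23 dph (adjusted p = 0.459 and 0.212), with deviations from -1.76 to -2.26.

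ENSSMAG00000001118 was the gene that was behind and rising. It had 223 and 194 counts at 15 dph, 290 and 204 at 23 dph, and 4678 and 6558 at 37 dph. In CPM these were 8.51 ± 1.04, 12.7 ± 1.79 and 319 ± 19.9 (SD, n = 2 at each stage). The stages did not overlap, and the juvenile fish stood far above the rest. Of the net log2 increase of 5.23, 11% was present at climax. The log2 change from 15 to 23 dph was 0.57 with a standard error of 0.18 and was not called (edgeR adjusted p = 0.132). The level on the line was 31.7 CPM and the log2 deviation was -1.33 (standard error 0.16, edgeR adjusted p = 0.0066). The call was lost without replicate 1 of 15 dph (deviation of -1.24, adjusted p = 0.067 in edgeR) and without replicate 1 or replicate 2 of 23 dph (-1.47 and -1.19, adjusted p = 0.0777 and 0.117).

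**Figure D3:**
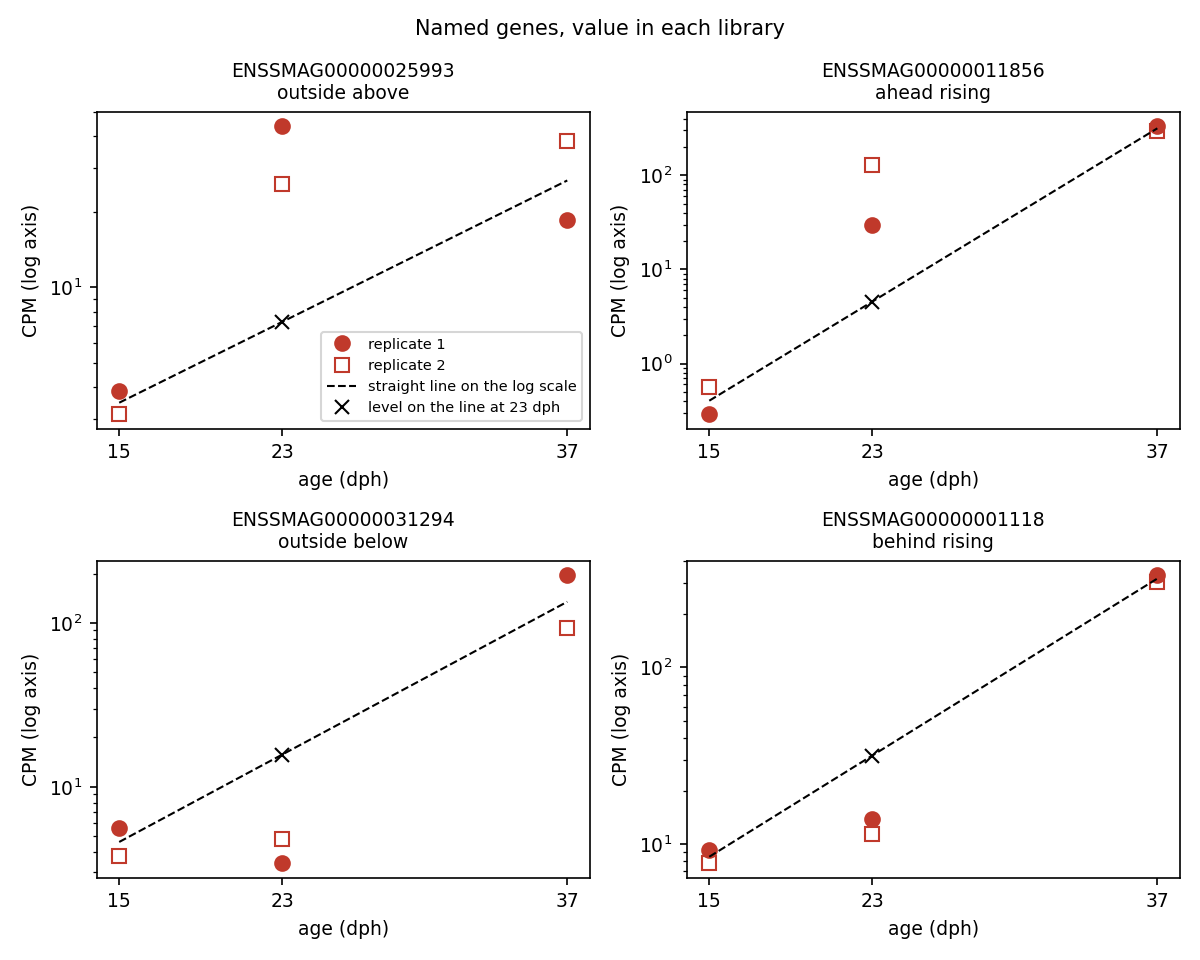
CPM (log axis) of the 4 named genes in each library against age in dph, with replicate 1 as filled circles and replicate 2 as open squares. The dashed line joins the geometric means of 15 and 37 dph, and the cross is the level on the line at 23 dph. Both climax values lie above the cross in the upper panels and below it in the lower panels.

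The line was also read over the genes with a large net change, called or not. Between 15 and 37 dph, 2551 genes (13.4%) were at least 2-fold higher and 1582 (8.33%) at least 2-fold lower at 37 dph, each with an adjusted p under 0.05 in the same edgeR fit. The median rising gene had covered 33.9% of its log2 change at climax (quartiles 19.3% and 49.5%), and the median falling gene 27.4% (quartiles 12.2% and 46.7%). In the 2 climax fish taken singly the medians were 34.7% and 32.9% for rising genes and 27.7% and 27.0% for falling genes. Both fish were set against the same libraries of 15 and 37 dph. Of the rising genes 45.4% had reached or passed the line, and of the falling genes 37.6%. The level at climax was on the far side of 15 dph for 6.59% of the rising and 11.9% of the falling genes, and beyond 37 dph for 1.84% and 1.58%.

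On the CPM scale the order of rising and falling genes turned around. For the same level between the ends, the share covered in CPM is smaller than on the log2 scale for a rising gene. For a falling gene it is larger, so the change of scale alone moves the medians in these directions. The median rising gene had covered 19.9% of its change in CPM and the median falling gene 38.2%, and 21.7% of the rising and 52.7% of the falling genes had reached the line drawn on that scale. These genes were selected by levels that also set the line, so their positions are a description without a test. Of the rising genes 51 were called above the line and 4 below, and of the falling genes 23 were called above it.

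**Figure D4:**
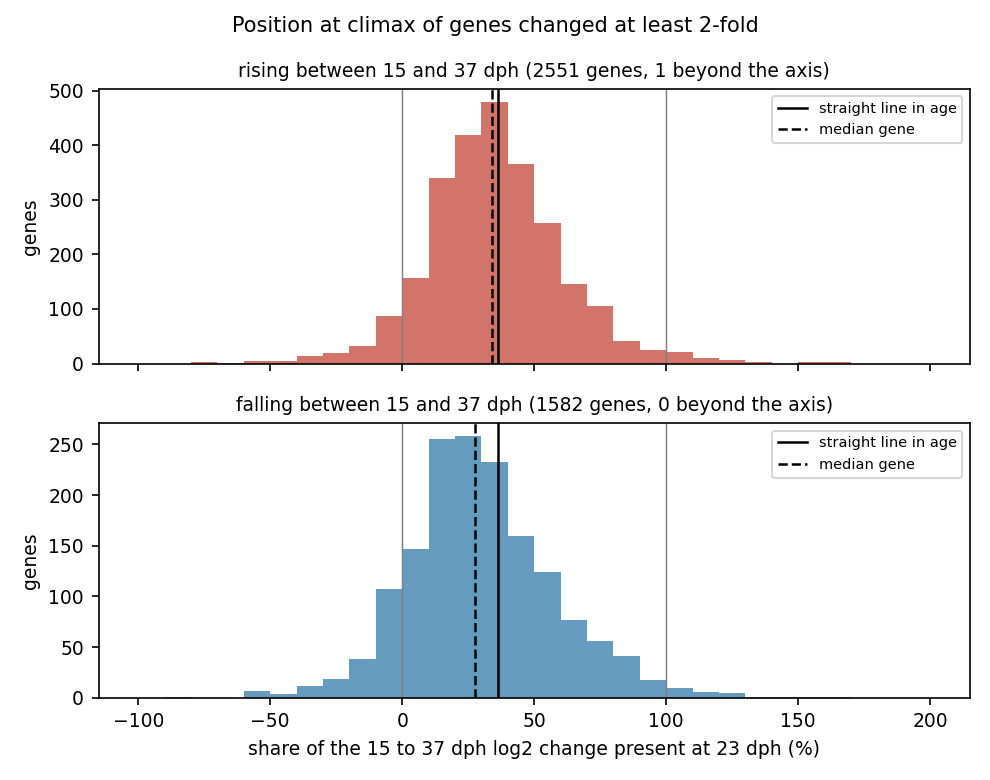
Number of genes by the share (%) of the log2 change from 15 to 37 dph present at 23 dph, in bins of 10 percentage points, for genes rising (upper panel, 2551 genes) and falling (lower panel, 1582 genes) at least 2-fold. The solid line is the straight line in age (36.4%) and the dashed line the median gene, at 33.9% and 27.4%.

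Over all genes tested, the path covered at climax was estimated as the slope of the log2 change from a 15 dph library to a climax library on the log2 change from the other 15 dph library to a 37 dph library. It was 31.7% for replicate 1 of 23 dph and 30.2% for replicate 2. Over the choices of libraries it ran from 28.0% to 36.6% and from 26.7% to 34.7%, a range that reaches the 36.4% of the line in replicate 1 only. The slope is across genes, which are not replicates, and random variation in the libraries on its horizontal axis lowers it.

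**Figure D5:**
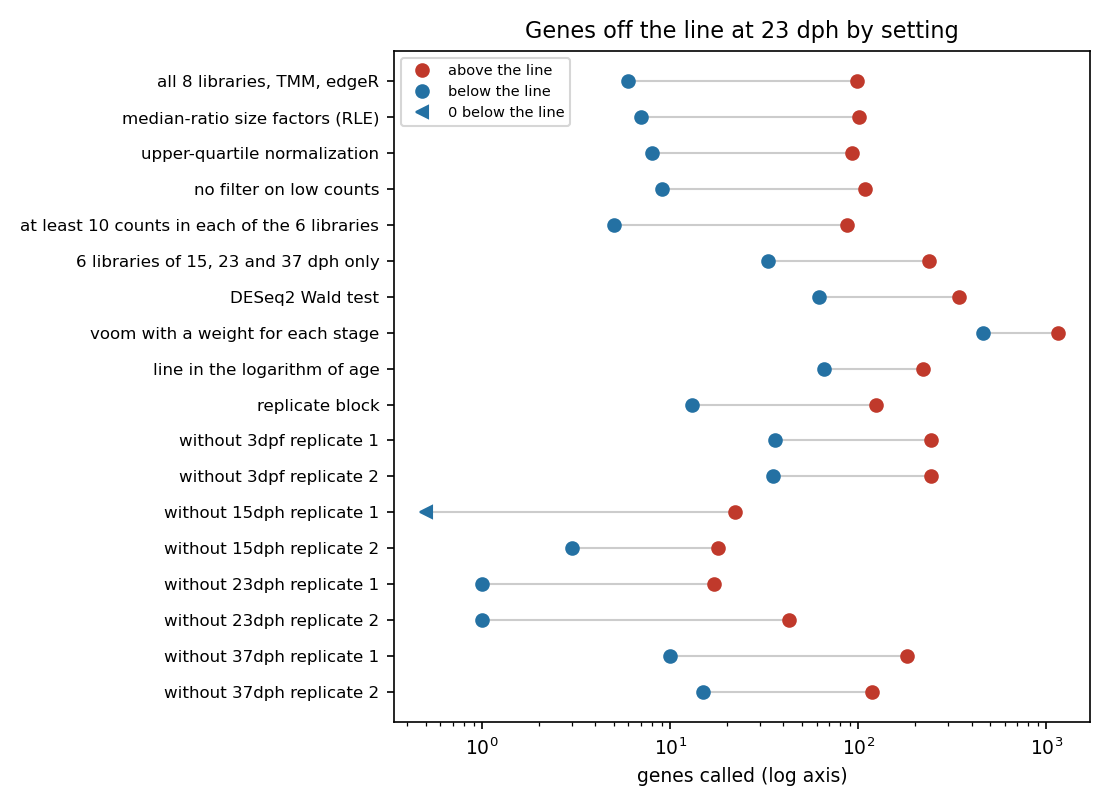
Number of genes called above (red) and below (blue) the line at 23 dph on a log axis, for each setting of the fit; an arrow at the left edge stands for 0. In the settings shown, which leave out the refits of 6 libraries with 1 more left out, more genes are above than below the line and the counts above run from 17 to 1155.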

How the data were processed

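Stranded mRNA libraries of 8 turbot, 2 fish at each of 4 stages, were sequenced with paired-end reads. Trimmomatic (adapters), STAR (mapping to ASM1334776v1) and HTSeq-count were used by the authors, who deposited raw counts of 21263 genes per library. The strand setting and annotation release are not given in the sources used here. Reads of overlapping genes and near-identical copies may be missing from the counts or set to the wrong gene. The 5 summary rows of each table, which name no gene and hold 61.2% to 62.0% of its counts, were left out.

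After filterByExpr 18987 genes were left, and libraries were scaled by TMM in edgeR 4.0.16 (limma 3.58.1, DESeq2 1.42.0, R 4.3.3). All 8 libraries entered 1 quasi-likelihood fit with 4 stage means and 4 residual degrees of freedom. The paper names no test of this contrast. CPM values are scaled by TMM, log2 CPM used a prior count of 2, and shares of gene counts are unscaled. The standard error is the size of the deviation over the square root of the F statistic. A limit of 3 counts covers counting error only. P-values rest on the spread between the 2 fish of a stage, pooled over all 4 stages with 3 dpf included.

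The procedure was tested on simulated data with 200 genes moved off the line. The rates given here are those of the fit of 8 libraries. With the measured spread of each stage given to all genes alike, 18.0% of deviations of 0.7 and 86.0% of those of 1 were recovered. For deviations of 1.5 or 2 it was 100%, with 0 calls among the unchanged genes of 18905. With 1 spread for all stages 42% of deviations of 0.7 and 82% of those of 1 were recovered, with 12 such calls among 18916 genes. Genes with low mean counts were not moved, and real genes differ in spread within a stage. These rates therefore do not carry over to every gene.

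The contrast, classes and rule for named genes were chosen with earlier results of these data known. Genes could be named with a mean of at least 10 CPM over the 6 libraries and 1 direction in all 8 library choices, which 83 genes above and 5 below met. Above and below the line, the largest deviation outside and between the ends was named. The gene table holds 26628 genes of another assembly, ASM2237912v1, with 0 Ensembl identifiers, so the planned marker lists were not analysed. Alternatives covered the normalization, filter, libraries, test, line, minimum deviation, each replicate left out and a replicate block.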

Additional observations from a re-analysis of the deposited data

How the results depend on the processing

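The counts of genes above and below the line, above both ends and below both ends (99, 6, 19 and 1) changed with the libraries and the test. They were 237, 33, 70 and 10 in the 6 libraries of 15, 23 and 37 dph alone, 342, 62, 55 and 5 in DESeq2, and 1155, 460, 287 and 77 with voom (limma) weighted by stage, where 71.5% of the calls were above the line. A line in the logarithm of age, which places climax at 47.3% of the way, gave 221 above, 66 below and 2 below both ends. Without a filter 2 genes were below both ends. With each replicate left out in turn the counts ran from 17 to 243, from 0 to 36, from 0 to 72 and from 0 to 11. With only the 6 libraries and each left out in turn, an alternative chosen after seeing the data, the counts above and below were 14 and 1 or 13 and 2 without replicate 1 or 2 of 15 dph, 1 and 0 or 18 and 0 without those of 23 dph, and 1663 and 755 or 1612 and 823 without those of 37 dph. Where the count below the line was 0 in edgeR, genes still lay below it at an unadjusted p under 0.05, so the 0 does not mean that none did. Without replicate 1 of 37 dph 182 genes were above and 10 below, and without replicate 2 of 37 dph 119 and 15. The cause of these changes was not tested. The path covered was 31.0% and ran from 29.6% to 32.3% with a replicate of 23 or 37 dph left out; leaving out a 15 dph replicate gives no value, since the estimate needs both.

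The replicate number as a block gave 124 genes above the line, 13 below, 26 above both ends and 1 below both. Differences between replicates 1 and 2 correlated across genes at r from -0.14 to 0.23 over the 6 pairs of stages, so the numbers were not taken to pair the fish. The other normalizations, the stricter filter and the minimum deviation of 1 left the counts within 1.5 times. The line on the CPM scale was applied only to genes already called, so it could add none. Of the genes called above the line, 90 also lay above the CPM line. For the 72 outside genes among them this was given, since they lay above both ends. For the 6 genes below the line it was given too, since the CPM line lies higher. These counts therefore do not test the choice of scale. Of the 4 named genes none changed sign in any refit. The simulated data had 2 fish per stage. The fit of 8 libraries recovered 18% of log2 deviations of 0.7 with the spread of each stage and 42% with 1 spread for all stages. The fit of 6 libraries recovered 42% and 40% in the same order. Other sizes under 1 were not simulated.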

Other observations

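The 3 dpf libraries, whole animals that took no part in the contrast, gave a further description of the called genes. Of the 99 genes above the line at climax, 65 (65.7%) had a lower mean CPM at 3 dpf than at each later stage, against 39.9% of all genes tested. This was so for 19 of the 24 genes ahead and rising and for 33 of the 39 outside genes with a net rise, but for 11 of the 33 outside genes with a net fall. The median level at 3 dpf was 1.16 CPM for the genes ahead and rising, 1.69 CPM for the outside genes with a net rise and 44.3 CPM for those with a net fall. Of the 19 genes with a peak at climax called against both ends, 17 were also higher at climax than at 3 dpf, and 9 were at least 10 times higher. The 19 were picked for high levels at climax, which favours both counts, and the shares over all genes were not counted. Higher levels at 3 dpf than at each later stage were found for 9 of the 99 genes (9.09%), against 39.3% of all genes tested. Among these 9, 8 were outside genes with a net fall. The 99 were picked for levels above the line at climax, which favours a lower share here. All 99 genes together took 0.711% and 0.743% of gene counts at 3 dpf. Whole animals at 3 dpf and cut bodies later cannot be told apart from the stages themselves, and these shares were not tested.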
